A study of Mus musculus with 8 samples.

Results

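The genes described here are 40 members of transforming growth factor beta (TGF-beta), bone morphogenetic protein (BMP) and activin signalling taken by gene name from the 54532 genes of a deposited expression table, by a list drawn up with earlier results of these data known. They comprise 7 ligand genes, 4 latency proteins, 6 type I receptors, 4 type II receptors, 2 co-receptors, 6 receptor-regulated or common SMADs, 4 SMAD inhibitors or repressors, 3 follistatins and 4 ID targets. RNA was sequenced from whole brown adipose tissue, a heat-producing fat, in 4 OGTBKO and 4 WT mouse samples. OGTBKO stands for a knockout confined to brown adipocytes of Ogt, whose product, O-GlcNAc transferase, adds a single sugar to proteins inside the cell. WT samples were wild type and labelled as controls. Mice of both groups lived at 23 °C and ate standard chow. Induction with an agent that the labels spell gomaxifen came after 8 weeks, also in WT mice, and the depot, trimmed of white fat, was taken 2 months later. The sources used here do not give the promoter that drives the deletion, the sex or the exact age. The labels name adipocytes as the cell type, but the tissue was taken whole and the protocols describe no sorting, so transcripts of vascular, stromal and immune cells are included, and in such bulk samples fewer cells of a type and less RNA per cell cannot be told apart. The title of the series concerns signals from adipocytes to vessels, and the comparison asks which genes of these growth factor pathways differ when brown adipocytes lose Ogt.

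TGF-beta, BMP and activin ligands are secreted dimers that bind a complex of type II and type I receptor kinases at the cell surface. The type I receptor then phosphorylates receptor-regulated SMAD proteins, SMAD2 and SMAD3 for TGF-beta and activin and SMAD1, SMAD5 and SMAD9 for BMP, which enter the nucleus with the common partner SMAD4. TGF-beta is stored in the matrix in a latent form bound to LTBP proteins, follistatins trap activins, and the ID genes are classical BMP targets. In fat, BMP4 and BMP7 promote adipocyte commitment and brown fat formation, TGF-beta signalling through SMAD3 restrains brown and beige fat genes, and in endothelial cells BMP signals pass through ACVRL1, BMPR2 and endoglin.

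Of the 40 members, 35 had a mean of at least 0.5 FPKM (fragments relative to gene length and to the library's depth, here rescaled between libraries) over the 8 libraries and were tested. Among those 35, 3 were higher in OGTBKO tissue (8.57%, against 8.11% of all genes tested), 6 were lower (17.1%, against 7.46% of all genes) and 26 were not called. In either direction 9 were called, or 25.7%, against 15.6% of the 13171 genes tested. A call means an adjusted p under 0.05 in limma, fitted to log2(FPKM + 0.5) over all genes with Benjamini-Hochberg adjustment. The genes that rose were the ligand gene Tgfb1, the latency protein gene Ltbp4 and the BMP target Id2. Those that fell were the receptor genes Tgfbr1, Acvr1c, Bmpr1a, Bmpr2 and Acvr2a, and the common SMAD gene Smad4. The median log2 change of the 35 was -0.06, against -0.00213 for all genes tested. The 2 groups of libraries did not overlap for the same 9 of the 35 members, 3 of them higher and 6 lower, or 25.7%. That share is near the 22.5% of all genes tested, 11.1% with OGTBKO higher and 11.4% with OGTBKO lower.

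**Figure D1:**
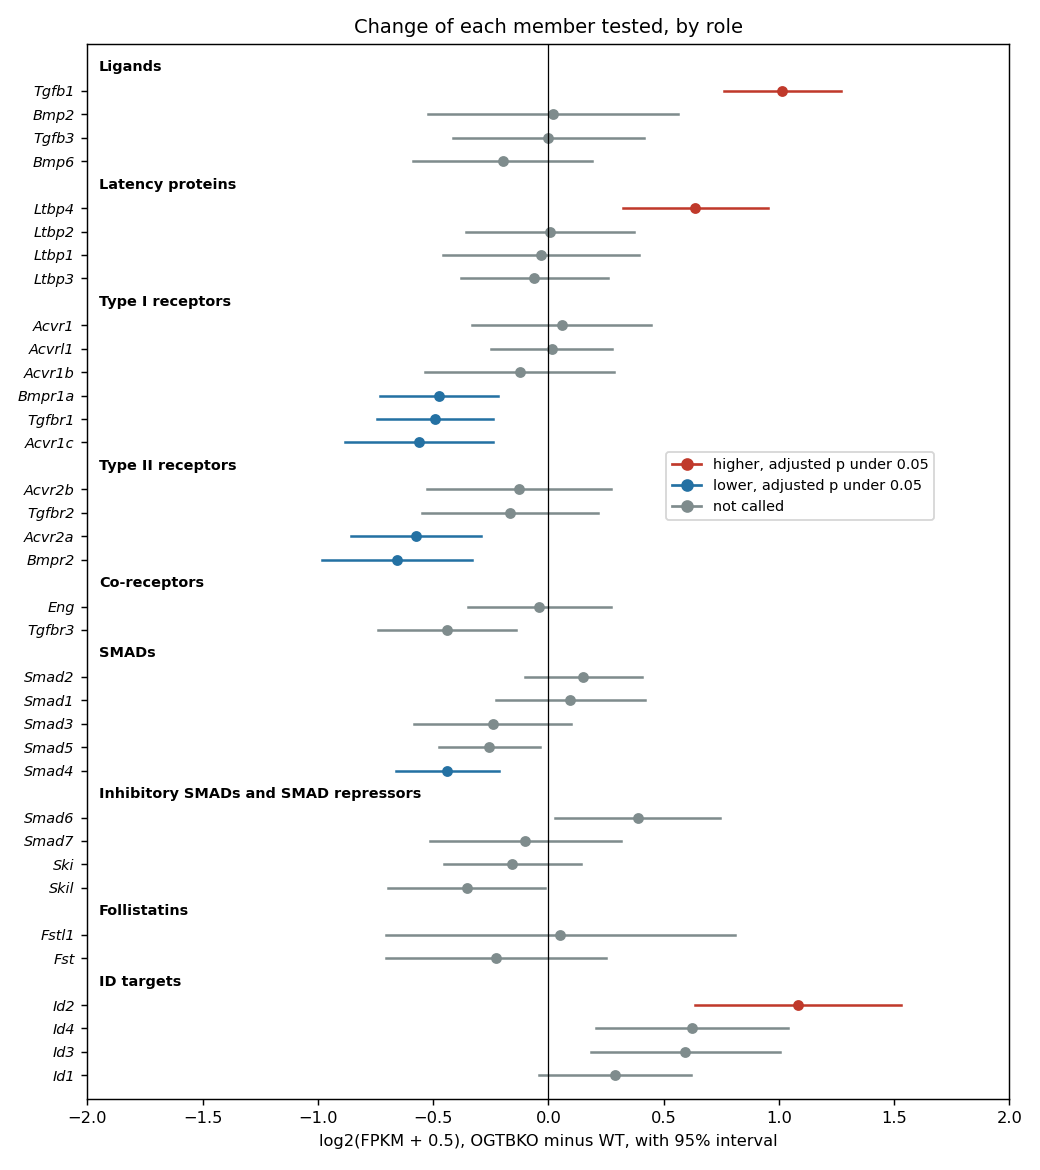
Log2 change of each of the 35 members tested (points, OGTBKO minus WT, log2(FPKM + 0.5)) with its 95% interval (lines), grouped by role. Red marks the 3 genes called higher and blue the 6 called lower; the 5 blue receptor points lie between -0.47 and -0.66.

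Sequence next to an annotated RefSeq transcription start is shown for the 3 members that rose and for Tgfbr1 and Acvr2a, a type I and a type II receptor that fell, because SMAD complexes bind short sites in such regions. Sequences are from RefSeq on GRCm38.p6 (mm10). Each comes from the 250 bases before the most upstream RefSeq start, without any base in a GENCODE exon of the gene, which left 250 bases for Tgfb1, Tgfbr1 and Acvr2a, 170 for Ltbp4 and 89 for Id2. Of the 40 members 30 matched an entry. Capitals mark AGAC or its reverse complement GTCT, the core of the site that SMAD3 and SMAD4 bind, and GGCGCC, a GC-rich site of BMP-activated SMADs, which reads the same on both strands. The stretches are chr7:25686752-25687001 (plus strand) for Tgfb1, chr7:27337693-27337862 (minus strand) for Ltbp4, chr12:25096254-25096342 (minus strand) for Id2, chr4:47352972-47353221 (plus strand) for Tgfbr1 and chr2:48813859-48814108 (plus strand) for Acvr2a.
Tgfb1: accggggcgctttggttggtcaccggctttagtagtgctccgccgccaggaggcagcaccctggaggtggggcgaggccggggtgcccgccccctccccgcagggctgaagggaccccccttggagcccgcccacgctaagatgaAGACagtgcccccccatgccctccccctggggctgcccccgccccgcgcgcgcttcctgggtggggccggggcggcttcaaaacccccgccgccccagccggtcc
Ltbp4: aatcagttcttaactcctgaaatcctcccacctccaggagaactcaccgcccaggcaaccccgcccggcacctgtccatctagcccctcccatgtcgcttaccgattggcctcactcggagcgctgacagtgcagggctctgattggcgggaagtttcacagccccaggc
Id2: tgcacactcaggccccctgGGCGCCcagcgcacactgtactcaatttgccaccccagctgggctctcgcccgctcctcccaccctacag
Tgfbr1: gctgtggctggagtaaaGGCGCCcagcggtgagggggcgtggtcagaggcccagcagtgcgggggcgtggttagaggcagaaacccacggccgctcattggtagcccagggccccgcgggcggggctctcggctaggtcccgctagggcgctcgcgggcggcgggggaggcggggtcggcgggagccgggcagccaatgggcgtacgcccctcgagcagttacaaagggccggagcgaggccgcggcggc
Acvr2a: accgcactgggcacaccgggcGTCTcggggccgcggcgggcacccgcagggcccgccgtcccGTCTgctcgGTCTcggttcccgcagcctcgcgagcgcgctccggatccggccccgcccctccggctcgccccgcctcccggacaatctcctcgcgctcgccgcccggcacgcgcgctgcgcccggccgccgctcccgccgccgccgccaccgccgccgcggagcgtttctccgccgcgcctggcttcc
AGAC or GTCT occurred once in the Tgfb1 sequence and 3 times in that of Acvr2a, and GGCGCC occurred once each in those of Id2 and Tgfbr1. The Ltbp4 sequence held neither. The Id2 stretch lies inside the deposited Id2 gene, which starts further upstream, and is not upstream of the gene as measured. Over all 32851 full windows of 250 bases, 82.9% held AGAC or GTCT and 9.59% held GGCGCC, against 23 and 7 of the 30 member windows. Member windows, 1 per gene, had 43.2% to 87.6% GC, and this comparison was not matched for GC. GC made up 75.2% of the sequence shown for Tgfb1, 74.8% for Tgfbr1 and 82% for Acvr2a, where the median window had 52.4%. These matches describe letters only and show no binding.

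The libraries held 13393962 to 15897920 reads assigned to genes. In WT 3, 39.4% of these reads were mitochondrial, against 25.2% to 32.2% in the other libraries. Without WT 3 every called member kept its call, and Id4 was called higher as well. Ogt itself measured 10.7, 14.5, 12.8 and 11.8 FPKM in OGTBKO 1 to 4, against 33.1, 24.7, 23.9 and 22.5 FPKM in WT 1 to 4 (log2 -1.03 ± 0.14 SE, limma adjusted p = 0.00511), so the labels held in every library. Skeletal muscle markers (8 genes) summed to 1464, 1.08, 5.97 and 0.99 FPKM in OGTBKO 1 to 4 and to 492, 0.946, 0.383 and 35.9 FPKM in WT 1 to 4, so that OGTBKO 1 and WT 1 stood apart. Without those 2 libraries, a setting added later, 6 members were still called lower and 4 higher, the fourth being Id3. The 10 endothelial markers summed to 171 to 182 FPKM in OGTBKO and 147 to 186 FPKM in WT libraries. Of these 10, 4 had a change above 0 and 6 below, and 1 was called, Cdh5, which was higher (log2 0.35, limma adjusted p = 0.0413). The Cdh5 call held in 5 of 18 alternatives. The 8 markers of T and B lymphocytes together stayed under 2.1 FPKM in every library, and the brown adipocyte and general adipocyte markers were present in all (summed levels of 2712 to 3103 and 2024 to 2566 FPKM in OGTBKO, against 2769 to 4188 and 1489 to 2250 FPKM in WT libraries). Of the 6 brown adipocyte markers 2 fell, the uncoupling protein gene Ucp1 (log2 -0.999, limma adjusted p = 0.0113) and the coactivator gene Ppargc1a (log2 -0.87, limma adjusted p = 0.0063). Of the 6 general adipocyte markers 1 rose, the lipase gene Lipe (log2 0.60, limma adjusted p = 0.0165). The labels do not say outright that the samples were separate animals, and p-values therefore cover only the spread among these samples, which may be technical.

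Among the ligand genes, Tgfb1 rose in OGTBKO tissue. Tgfb1 (ENSMUSG00000002603, chr7:25687002-25705077, plus strand) encodes the most widely expressed TGF-beta, which acts on vessels, matrix and immune cells. It measured 5.07, 5.67, 7.13 and 5.34 FPKM in OGTBKO 1 to 4, against 2.50, 2.63, 2.66 and 2.58 FPKM in WT 1 to 4. The WT values lay within a narrow band, all OGTBKO values were above them, and OGTBKO 3 was the highest. The log2 change was 1.02 ± 0.11 (SE, 95% interval 0.76 to 1.27, limma adjusted p = 0.00236), and the call held in all 18 alternatives tried. It rested on 375 to 646 reads per OGTBKO library and 142 to 213 reads per WT library. In the same libraries, the 10 macrophage markers, another cell type that makes TGF-beta, summed to 250, 577, 469 and 503 FPKM in OGTBKO 1 to 4 and 362, 285, 183 and 341 FPKM in WT 1 to 4. These sums averaged 449.5 FPKM in OGTBKO and 293 FPKM in WT tissue, a ratio of 1.53, and overlapped between the groups. Of the 10 markers, all of them tested, 7 had a change above 0 and 1 was called, which was lower (Cd163, log2 -1.06, limma adjusted p = 0.0413). Adgre1 averaged 11.8 FPKM in OGTBKO and 11.2 FPKM in WT tissue, Cd68 25.9 and 14.1 FPKM (log2 0.78, limma adjusted p = 0.0974), and Lyz2 317 and 173 FPKM (log2 0.85, limma adjusted p = 0.154). The markers Gpnmb (log2 1.23, limma adjusted p = 0.115) and Trem2 (log2 1.1, limma adjusted p = 0.0519), were not called. The part of macrophages in the Tgfb1 difference was not tested.

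Of the other isoforms, Tgfb3 was not called and Tgfb2 was not tested. Tgfb3, which acts in wound and palate tissue, measured 1.69, 1.39, 1.25 and 0.743 FPKM in OGTBKO 1 to 4, against 1.49, 1.20, 1.23 and 1.05 FPKM in WT 1 to 4, with overlapping groups (log2 -0.0008, 95% interval -0.42 to 0.41, limma adjusted p = 0.998). Tgfb2, the third isoform, was below the filter at 0.392 ± 0.138 FPKM in OGTBKO and 0.336 ± 0.0453 FPKM in WT tissue (SD, n = 4 each). By summed FPKM, Tgfb1 made up 69.8% to 83.7% of the isoforms in OGTBKO libraries and 58.3% to 65.6% in WT libraries, with no overlap. That share uses the Tgfb1 values given above and is no separate evidence.

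No BMP or activin ligand gene among the members was called. Bmp6, an endothelial and iron-regulating BMP, was the most abundant ligand gene in WT tissue, at 8.26, 5.49, 6.06 and 6.48 FPKM in OGTBKO 1 to 4 and 5.72, 8.02, 7.14 and 9.82 FPKM in WT 1 to 4 (log2 -0.20, 95% interval -0.59 to 0.19, limma adjusted p = 0.461). Bmp2, a bone-forming ligand that vessels also make, averaged 0.792 ± 0.139 FPKM in OGTBKO and 0.826 ± 0.461 FPKM in WT tissue (SD, n = 4 each), and WT 3 with 1.46 and WT 1 with 0.365 FPKM bounded all 8 libraries. Bmp4, which commits precursors to the adipocyte fate, was below the filter and lay at 0.623, 0.442, 0.445 and 0.16 FPKM in OGTBKO 1 to 4, against 0.289, 0.28, 0.21 and 0.272 FPKM in WT 1 to 4. Its values rested on 5 to 23 reads per library. Inhba, the activin A subunit, was lower still, at 0.0667 to 0.165 FPKM in OGTBKO and 0.102 to 0.251 FPKM in WT libraries, also below the filter.

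**Figure D2:**
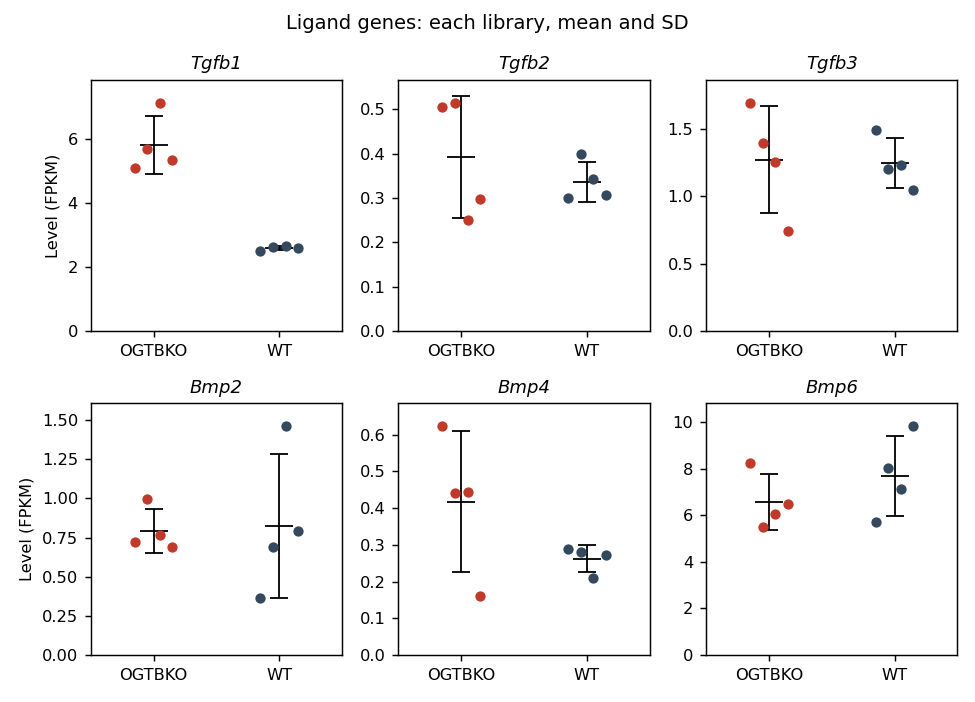
Levels in FPKM of the TGF-beta isoform genes (top) and of Bmp2, Bmp4 and Bmp6 (bottom) in each of 4 OGTBKO and 4 WT libraries (points), with mean and SD (black bars). The Tgfb1 libraries separate, at 5.07 to 7.13 FPKM in OGTBKO and 2.50 to 2.66 FPKM in WT, while the groups overlap for the other 5 genes.

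Of the 4 latent TGF-beta binding protein genes, which tether latent TGF-beta to matrix microfibrils, Ltbp4 rose. Ltbp4 (chr7:27305136-27337692, minus strand), which also organises elastic fibres, measured 20.9, 22, 22.3 and 17.8 FPKM in OGTBKO 1 to 4, against 10.01, 14.1, 14.1 and 14.7 FPKM in WT 1 to 4 (log2 0.64 ± 0.14 SE, limma adjusted p = 0.0196). Every OGTBKO library was above every WT library, and WT 1 lay well under the other WT libraries. Ltbp4 transcripts had 62.2% GC, the most of any member tested. After removal of each library's trend on GC content and length its log2 change was 0.38, and it was not called (limma adjusted p = 0.0775), nor was it without OGTBKO 2 (limma adjusted p = 0.0512) or without OGTBKO 3 (limma adjusted p = 0.0628). Ltbp3, the most abundant of the family with 23.2 ± 3.75 FPKM in OGTBKO and 24.2 ± 3.45 FPKM in WT tissue, and Ltbp2, which binds microfibrils rather than TGF-beta, with 14.8 ± 3.31 and 14.6 ± 1.74 FPKM, were not called (SD, n = 4 each). Ltbp1, a carrier of latent TGF-beta, averaged 1.11 ± 0.416 FPKM in OGTBKO and 1.1 ± 0.0684 FPKM in WT tissue and was not called either. OGTBKO 4, with 0.699 FPKM, and OGTBKO 2, with 1.55 FPKM, bounded its values. Ltbp4 made up 30.2% to 40.6% of the family's summed FPKM in OGTBKO libraries and 20.5% to 28.6% in WT libraries. Being built from the Ltbp4 values above, this share is no separate evidence.

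Receptor genes were lower where they were called. Of the 10 type I and type II receptor genes, all of them tested, 5 were lower, 0 higher and 5 not called, where 7.46% of all genes were lower. All 5 lie in the lowest of 4 equal bins of genes by transcript GC content, where 17.7% of all genes were lower. After removal of each library's trend on GC content and length, and likewise with library totals as denominator, 1 of the 5, Bmpr2, was still called. Of the 6 brown adipocyte markers, Ucp1 and Ppargc1a fell in the same libraries and 4 were not called. The 2 of 6 with changes above 0 were Elovl3 (log2 1.75) and Cox8b (log2 0.64). What part brown adipocyte content had in the receptor falls was not tested. The median log2 change of the 10 type I and type II receptor genes was -0.32, with 8 of 10 changes below 0. Among the type I receptors, Tgfbr1, the kinase through which TGF-beta signals, measured 3.93, 4.65, 3.76 and 4.63 FPKM in OGTBKO 1 to 4, against 5.54, 7.09, 6.33 and 5.72 FPKM in WT 1 to 4 (log2 -0.49 ± 0.11 SE, limma adjusted p = 0.0228). Acvr1c, or ALK7, an adipocyte receptor for activins and related ligands that restrains lipolysis, measured 19.98, 14.7, 13.2 and 15.8 FPKM in OGTBKO 1 to 4, against 21.8, 27.7, 23.6 and 21.3 FPKM in WT 1 to 4 (log2 -0.56 ± 0.14 SE, limma adjusted p = 0.0309). Bmpr1a, a BMP receptor of adipocytes and their precursors, measured 10.8, 9.33, 7.88 and 9.66 FPKM in OGTBKO 1 to 4, against 13.1, 14.5, 13.5 and 11.8 FPKM in WT 1 to 4 (log2 -0.47 ± 0.11 SE, limma adjusted p = 0.0273). For these 3 genes the highest OGTBKO library stayed below the lowest WT library. OGTBKO 1 came nearest to the WT libraries for Acvr1c and Bmpr1a.

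Both type II receptors that fell bind BMPs, and one of them activins as well. Bmpr2 (chr1:59763400-59879014, plus strand), the BMP type II receptor of vessels and other tissues, measured 7.68, 7.72, 5.91 and 8.11 FPKM in OGTBKO 1 to 4, against 9.44, 13.2, 13.8 and 11.3 FPKM in WT 1 to 4 (log2 -0.66 ± 0.14 SE, limma adjusted p = 0.0202). Acvr2a, an activin type II receptor, measured 4.56, 4.30, 4.03 and 4.59 FPKM in OGTBKO 1 to 4, against 5.24, 7.91, 7.11 and 7.01 FPKM in WT 1 to 4 (log2 -0.58 ± 0.13 SE, limma adjusted p = 0.0198). OGTBKO 3 was the lowest library for both, and WT 1 the lowest of its group. Acvr2a exons overlap those of Orc4 on the opposite strand (4.53 FPKM on average over the 8 libraries), and since the use of strand in counting is not stated, reads of the pair may not be fully separable.

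The other 5 receptor genes and the co-receptor genes were not called. Acvrl1, or ALK1, the endothelial receptor for BMP9 and BMP10, averaged 5.61 ± 0.38 FPKM in OGTBKO and 5.59 ± 0.832 FPKM in WT tissue (log2 0.01, 95% interval -0.25 to 0.28). Its co-receptor endoglin (Eng) averaged 29.0 ± 2.8 FPKM in OGTBKO and 30.1 ± 5.17 FPKM in WT tissue (log2 -0.04, 95% interval -0.35 to 0.27). Tgfbr2, the type II receptor that binds TGF-beta and the most abundant type II receptor gene here, measured 24.8, 25.8, 27.9 and 31.2 FPKM in OGTBKO 1 to 4 and 32.0, 29.1, 41.5 and 23.0 FPKM in WT 1 to 4 (log2 -0.17, 95% interval -0.55 to 0.22). WT 4 was below every OGTBKO library and WT 3 above every one, so the groups overlapped. Tgfbr3, or betaglycan, which presents TGF-beta to its receptors, measured 12.4, 15.05, 10.54 and 12.6 FPKM in OGTBKO 1 to 4 and 14.7, 20.1, 17.6 and 16.8 FPKM in WT 1 to 4. OGTBKO 2 lay above WT 1, and Tgfbr3 missed the threshold (log2 -0.44 ± 0.13 SE, 95% interval -0.74 to -0.14, limma adjusted p = 0.0534). It was called lower in 4 of 18 alternatives. Acvr1, or ALK2, Acvr1b, or ALK4, and Acvr2b, receptors for BMPs and activins, each averaged under 2.6 FPKM in both groups and had limma adjusted p values from 0.664 to 0.854. The 5 called receptors were among those with the lowest GC content, 39.9% to 41.3%, whereas Acvrl1 had 56.6% and Eng 57.4%.

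**Figure D3:**
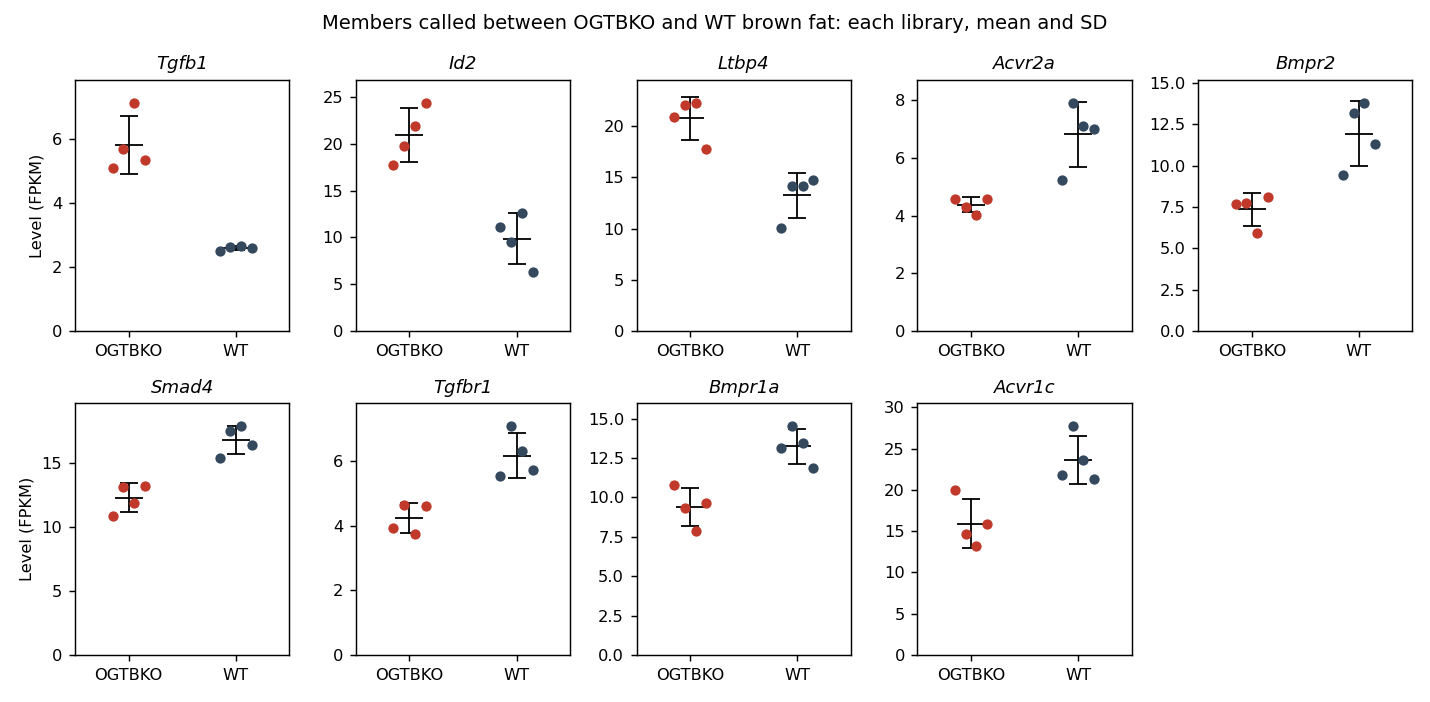
Levels in FPKM of the 9 called members in each of 4 OGTBKO and 4 WT libraries (points), with mean and SD (black bars), ordered by p. In every panel the groups separate: OGTBKO is above WT for Tgfb1, Id2 and Ltbp4 and below it for the other 6.

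Of the signal transducers, Smad4 fell. Smad4, the partner that both SMAD branches share, measured 10.9, 13.1, 11.8 and 13.2 FPKM in OGTBKO 1 to 4, against 15.4, 17.5, 17.8 and 16.4 FPKM in WT 1 to 4 (log2 -0.44 ± 0.10 SE, limma adjusted p = 0.0223). The groups were apart by more than 2 FPKM. Its transcripts had 49.4% GC, and after removal of the GC and length trend the log2 change was -0.43 (limma adjusted p = 0.0235). The call ended with library totals as denominator (limma adjusted p = 0.119), without OGTBKO 3 (limma adjusted p = 0.0689) and without WT 2 (limma adjusted p = 0.0677). Of the 5 receptor-regulated SMAD genes, 4 were tested, and these were not called. Smad5, a BMP SMAD, measured 9.27, 8.87, 8.31 and 8.33 FPKM in OGTBKO 1 to 4 and 9.26, 11.6, 11 and 10.1 FPKM in WT 1 to 4 (log2 -0.26, limma adjusted p = 0.105), with OGTBKO 1 and WT 1 almost equal. Smad3, a TGF-beta SMAD, measured 4.76, 3.90, 3.24 and 3.41 FPKM in OGTBKO 1 to 4 and 5.30, 3.89, 3.92 and 5.39 FPKM in WT 1 to 4 (log2 -0.24, limma adjusted p = 0.296). Smad2, its partner in that branch, measured 9.20, 8.19, 8.92 and 8.44 FPKM in OGTBKO 1 to 4 and 7.01, 7.11, 9.53 and 7.63 FPKM in WT 1 to 4, the groups overlapping through WT 3 alone (log2 0.15, limma adjusted p = 0.384). Smad1, of the BMP branch, averaged 2.0 ± 0.353 FPKM in OGTBKO and 1.84 ± 0.325 FPKM in WT tissue (SD, n = 4 each), and Smad9 of the same branch lay below the filter, at 0.0347 to 0.227 FPKM in OGTBKO and 0.134 to 0.299 FPKM in WT libraries.

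The inhibitors within the cell were not called. Smad6, which blocks mainly BMP signals and is itself induced by them, measured 7.33, 7.92, 6.63 and 6.93 FPKM in OGTBKO 1 to 4 and 3.80, 6.95, 5.42 and 5.78 FPKM in WT 1 to 4. Only WT 2 reached the OGTBKO range (log2 0.39 ± 0.16 SE, limma adjusted p = 0.126), and after trend removal the log2 change was 0.13. Smad7, the inhibitor that TGF-beta induces, averaged 1.35 ± 0.297 FPKM in OGTBKO and 1.5 ± 0.415 FPKM in WT tissue (SD, n = 4 each; log2 -0.10, 95% interval -0.51 to 0.31). Skil, or SnoN, a nuclear SMAD repressor induced by TGF-beta, measured 6.10, 8.03, 5.18 and 8.31 FPKM in OGTBKO 1 to 4 and 8.71, 9.94, 8.18 and 8.52 FPKM in WT 1 to 4 (log2 -0.36, limma adjusted p = 0.138). Its relative Ski measured 14.1, 15.4, 13.1 and 14.7 FPKM in OGTBKO 1 to 4 and 12.9, 18.1, 14.8 and 18.9 FPKM in WT 1 to 4 (log2 -0.16, limma adjusted p = 0.449), and WT libraries spread on both sides of the OGTBKO ones. Among the follistatins, Fst, the activin trap, averaged 1.79 ± 0.235 FPKM in OGTBKO and 2.27 ± 0.847 FPKM in WT tissue, and was not called. Fstl1, a secreted glycoprotein of stromal cells, measured 13.9, 43.1, 19.1 and 12.1 FPKM in OGTBKO 1 to 4 and 17.7, 17.7, 21 and 18.2 FPKM in WT 1 to 4 (log2 0.05, 95% interval -0.70 to 0.81). OGTBKO 2 alone stood high for Fstl1, and it also had the largest summed level of the 8 fibroblast and progenitor markers, 274 FPKM, against 141, 178 and 101 FPKM in OGTBKO 1, 3 and 4 and 159 to 231 FPKM in WT libraries. Of those 8 markers, 1 was called, Ly6a (log2 -0.93, limma adjusted p = 0.0333), and their part in the Fstl1 values was not tested. Fstl3, a follistatin relative, rested on 2 to 11 reads per OGTBKO library and 0 to 3 reads per WT library. Its WT 2 value of 0 reads allows up to 0.0857 FPKM, taking 3 reads as the limit for counting error.

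ID genes, which encode dominant-negative partners of basic helix-loop-helix factors, gave positive log2 changes in all 4 cases, and Id2 was the one called. Id2 (chr12:25093799-25097140, minus strand), which acts in adipocyte differentiation and in lymphoid and dendritic cells, measured 17.7, 19.8, 21.9 and 24.4 FPKM in OGTBKO 1 to 4, against 11.1, 9.48, 12.6 and 6.27 FPKM in WT 1 to 4. The lowest OGTBKO library was well above the highest WT library, WT 3, and WT 4 was the lowest of all. The log2 change was 1.08 ± 0.20 (SE, 95% interval 0.63 to 1.53, limma adjusted p = 0.0111), and the call held in all 18 alternatives. Id3, a BMP target of vessels and stroma, measured 24.0, 36.8, 32.4 and 36.2 FPKM in OGTBKO 1 to 4 and 25.3, 23.0, 15.5 and 21.3 FPKM in WT 1 to 4 (log2 0.59 ± 0.18 SE, limma adjusted p = 0.0553). The groups overlapped because OGTBKO 1 lay below WT 1, and these were the libraries richest in muscle transcripts. Id3 was called without OGTBKO 1 and likewise without WT 1, but in only 4 of 18 alternatives in all. After removal of the GC and length trend its log2 change was 0.43, and it was not called (limma adjusted p = 0.16). The part of muscle in the Id3 values was not tested. Id4, which favours adipocyte formation in mice, measured 1.11, 1.79, 1.55 and 1.34 FPKM in OGTBKO 1 to 4 and 0.487, 0.799, 1.13 and 0.683 FPKM in WT 1 to 4. Its groups overlapped through WT 3 and OGTBKO 1 (log2 0.62 ± 0.19 SE, limma adjusted p = 0.0513), but after trend removal it was called (log2 0.78, limma adjusted p = 0.0275). Id1, the BMP target of endothelial cells, measured 22.9, 24.4, 22.5 and 25.7 FPKM in OGTBKO 1 to 4 and 19.3, 23.2, 14.4 and 22 FPKM in WT 1 to 4 (log2 0.29, limma adjusted p = 0.205). The overlap of Id1 came from WT 2, and after trend removal its log2 change was 0.13 (limma adjusted p = 0.574). Whether the changes of the ID genes differ from one another was not tested.

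**Figure D4:**
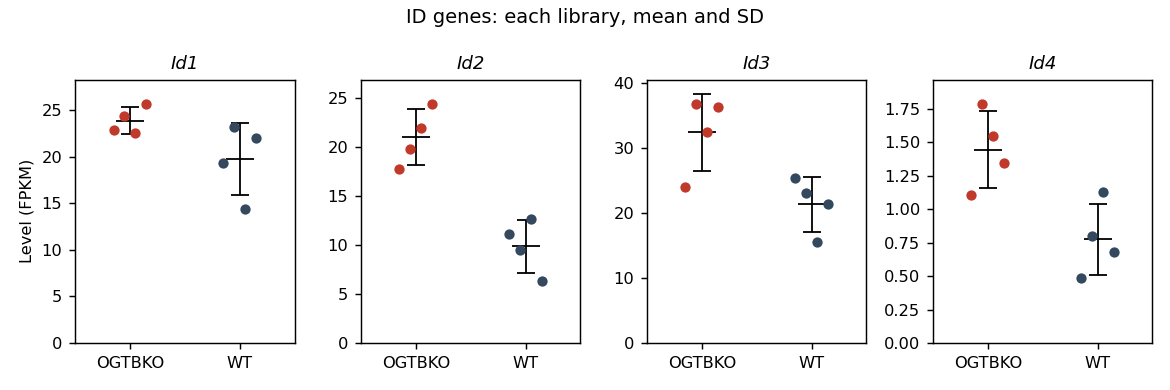
Levels in FPKM of the ID genes in each of 4 OGTBKO and 4 WT libraries (points), with mean and SD (black bars). The groups separate for Id2, at 17.7 to 24.4 FPKM in OGTBKO and 6.27 to 12.6 FPKM in WT, and overlap by 1 or 2 libraries for Id1, Id3 and Id4.

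Over all genes the direction of the calls went with base composition, and the 5 called receptors and Ltbp4 lay at the ends of that range. Of all genes tested in the lowest of 4 equal bins of transcript GC content (up to 44.7%), 17.7% were lower and 2.55% higher, and in the highest bin (from 54.2%) 1.98% were lower and 13.9% higher. Of the 9 members in the lowest bin 5 were called lower, all of them receptors. Of the 12 in the highest bin 0 were called lower and 1 higher, Ltbp4. In bin 3 by rising GC, where 3.16% of all genes were lower and 10% higher, Smad4 was called lower and Tgfb1 higher. In bin 2, where 6.99% of all genes were lower and 6.02% higher, Id2 was called higher. With the trend on GC and length removed from each library, 3 members were called higher (Tgfb1, Id2 and Id4), where 6.75% of all genes were, and 2 lower (Bmpr2 and Smad4), where 4.44% of all genes were, in all 11.2% of genes. Tgfb1 had a log2 change of 0.96 (limma adjusted p = 0.004) and Id2 of 1.17 (limma adjusted p = 0.0103) in that setting, and Bmpr2 of -0.41 (limma adjusted p = 0.0486). The receptor genes no longer called kept changes below 0: Acvr2a -0.34, Acvr1c -0.31, Tgfbr1 -0.28 and Bmpr1a -0.27, with limma adjusted p from 0.0833 to 0.176. The calls also depended on single libraries, for the members and for all genes. Without OGTBKO 3, and likewise without WT 2, 0 members were called lower. All genes called lower numbered 276 and 291 of 13171 in those fits, against 982 in the main fit. Without OGTBKO 3, Tgfb1 and Id2 were called higher, and without WT 2 Ltbp4 was too.

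**Figure D5:**
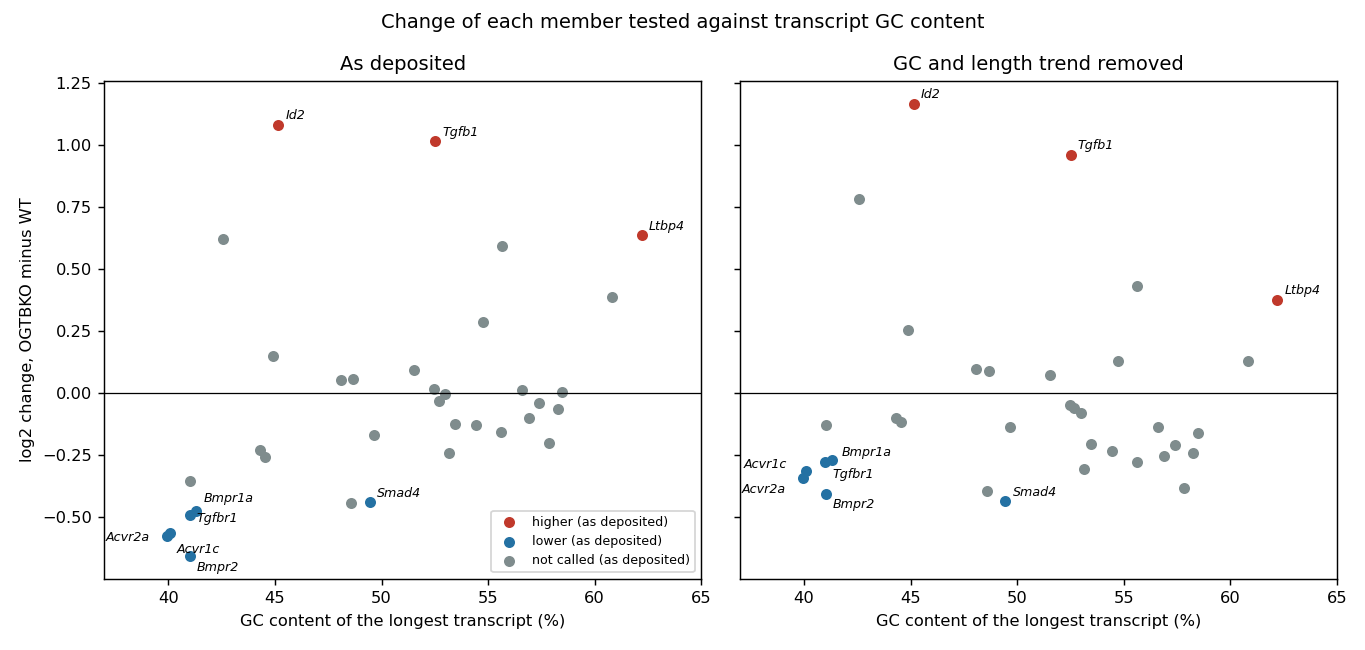
Log2 change (OGTBKO minus WT) of each member tested against the GC content of its longest transcript, as deposited (left) and after removal of each library's GC and length trend (right); colours mark the call as deposited. The 5 blue receptor genes sit together near 40% to 41% GC at the left, at -0.47 to -0.66, and at -0.27 to -0.41 after removal, while Id2 and Tgfb1 stay near 1.

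Other genes of these pathways, from a list of 75, gave 2 higher and 4 lower among the 41 tested, or 4.88% and 9.76%, against 8.11% and 7.46% of all genes. In either direction that is 14.6%, near the 15.6% of all genes, and the median log2 change was -0.05. Both that rose were ligands of the BMP group. Bmp8b, a BMP made by brown fat, measured 4.80, 6.98, 9.95 and 7.76 FPKM in OGTBKO 1 to 4, against 0.39, 0.36, 0.438 and 0.30 FPKM in WT 1 to 4 (limma adjusted p = 0.000227). Gdf5, a BMP relative known from joint formation, measured 3.20, 2.57, 2.13 and 3.0 FPKM in OGTBKO 1 to 4, against 0.529, 1.08, 1.67 and 0.395 FPKM in WT 1 to 4 (log2 1.26 ± 0.27 SE, limma adjusted p = 0.0181). All OGTBKO libraries were above all WT libraries for both, with WT 3 nearest for Gdf5, whose call ended without OGTBKO 4. Bmper, a secreted regulator that binds BMPs in the vessel wall, fell to 1.78, 1.53, 1.48 and 1.46 FPKM in OGTBKO 1 to 4, against 3.34, 3.89, 2.78 and 2.89 FPKM in WT 1 to 4 (log2 -0.85 ± 0.12 SE, limma adjusted p = 0.00552), and it stayed called in every fit without 1 library and after trend removal (limma adjusted p = 0.007). The deubiquitinase Usp9x, which acts on SMAD4, fell by 0.64 on the log2 scale, the SMAD4 ubiquitin ligase Trim33 fell by 0.38, and Xiap, which links BMP receptors to the kinase TAK1, fell by 0.37. After trend removal their log2 changes were -0.37 for Usp9x, -0.21 for Trim33 and -0.043 for Xiap, and none of these 3 was called. Of the 8 fits without 1 library, 6 called Usp9x, 1 called Trim33 and 0 called Xiap. Fkbp1a, which holds type I receptors inactive (log2 0.32, limma adjusted p = 0.0585), and the ubiquitin ligase Smurf2 (log2 -0.33, limma adjusted p = 0.0633) were not called.

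Of 26 genes known to respond to TGF-beta or BMP in other cells, 21 were tested. In limma 1 was higher (4.76%, against 8.11% of all genes) and 0 lower (against 7.46%). At an unadjusted p under 0.05 in limma, 4 of the 21 passed in either direction, where 4315 of the 13171 genes tested did. Of the 21, 4 were higher and 0 lower, but all genes were not split by direction at that threshold, so this division has no background here. Junb, an immediate-early transcription factor that TGF-beta induces, measured 5.0, 8.69, 7.52 and 5.62 FPKM in OGTBKO 1 to 4, against 3.17, 3.07, 1.68 and 3.75 FPKM in WT 1 to 4 (log2 1.09 ± 0.23 SE, limma adjusted p = 0.0178). The Junb call ended with the GC and length trend removed (limma adjusted p = 0.0702) and without OGTBKO 3. Tgfbi, a matrix protein named for its induction by TGF-beta, averaged 8.97 ± 1.65 FPKM in OGTBKO and 6.46 ± 1.52 FPKM in WT tissue (SD, n = 4 each; limma adjusted p = 0.108). Fibronectin (Fn1) measured 7.73, 31.8, 12.7 and 7.18 FPKM in OGTBKO 1 to 4 and 7.80, 5.89, 5.19 and 5.39 FPKM in WT 1 to 4, with OGTBKO 2 far above the rest, as for Fstl1 (log2 0.98 ± 0.40 SE, limma adjusted p = 0.128). Among BMP response genes, the Wnt pathway factor Tcf7l1 had the smallest p (log2 0.56, limma adjusted p = 0.05, above the threshold before rounding), and Hey1 of the Notch and BMP pathways averaged 1.59 FPKM in OGTBKO and 1.51 FPKM in WT tissue.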

How the data were processed

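RNA of dissected brown adipose tissue was checked on a Bioanalyzer and sequenced from NEBNext Ultra libraries, per the labels' protocols. According to the submitters' processing notes the tools were Subread, featureCounts 1.5.0-p3 and HISAT2 2.0.5, with mm10. Use of strand in counting is not given in the sources used here. The authors deposited FPKM values for 54532 genes in 8 libraries. Multiplied by the deposited gene length they came out as whole multiples of 1 read (tolerance 0.001) for at least 99.95% of values, and the denominators followed median-of-ratios size factors rather than library totals, so the values were already rescaled between libraries. Of the gene identifiers 98.3% had the same coordinates in GENCODE M21. All libraries carry 1 batch label.

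Values were analysed as log2(FPKM + 0.5), a scale that understates changes of low genes, for the 13171 genes with a mean of at least 0.5 FPKM, by limma 3.58.1 in R 4.3.3 (eBayes with trend, OGTBKO minus WT, two-sided, no covariate, Benjamini-Hochberg over all genes). Every adjusted p comes from such a fit. GC content is that of the longest GENCODE transcript (99.9% of tested genes). Alternatives changed the pseudocount, filter, denominator, block and libraries used, removed each library's linear trend on GC and log2 length, or weighted the back-calculated reads with voom. The steps were tested on simulated reads.

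The members and lists were chosen with earlier results of these data known. All 40 members could be named; values by library are given for the called members and at least the 10 next by p, and of the other lists every called gene and up to 2 more per list. Ccn2 and Hjv are listed under older symbols, and of 2 Hgs models the higher was taken.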

Additional observations from a re-analysis of the deposited data

Results flagged for a closer look

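In 5 of 80 groups of 4 libraries (40 members in each genotype), 1 library lay far from the other 3 by Dixon's test at the 95% level, where chance gives about 1 in 20. Fst measured 1.44 FPKM in OGTBKO 4, below the 1.89 to 1.93 FPKM of the other OGTBKO libraries. Ltbp4 measured 10.01 FPKM in WT 1, below 14.1 to 14.7 FPKM in the other WT libraries; without WT 1 it was still called. Ltbp3 measured 29.4 FPKM in WT 3, above 22.1 to 22.9 FPKM, and Fstl1 measured 21 FPKM in WT 3, above 17.7 to 18.2 FPKM. Acvr1 measured 3.07 FPKM in WT 4, above 2.07 to 2.24 FPKM.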

How the results depend on the processing

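Tgfb1 and Id2 were called in all 18 alternatives. Of the other 7 called members, each lost its call without at least 1 library. Over the fits that leave out 1 library, the members called higher numbered 2 to 4 and those called lower 0 to 7, with 0 lower without OGTBKO 3 and without WT 2. All genes called numbered 694 to 2115 in those fits, other pathway genes 1 to 3 higher and 1 to 4 lower, and response genes 0 to 2 higher.

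The counts moved as follows, where the main counts were 2050 genes, 3 members higher and 6 lower, 2 other pathway genes higher and 4 lower, and 1 response gene higher. With no filter on low values there were 1229 genes, 5 members were lower (Acvr1c lost), and 4 other pathway genes were higher and 2 lower. With the library total as denominator there were 1229 genes, 980 higher and 249 lower against 1068 and 982, 1 member lower (Bmpr2) and 4 higher, 2 other pathway genes lower and 2 response genes higher. That scaling moved the median of all genes to 0.09 on the log2 scale. Removal of the trend on GC and length left 2 members lower, 1 other pathway gene was lower and 0 response genes were higher. Voom on back-calculated reads, added after the data were seen, gave 5 members higher, 7 lower (Tgfbr3 added) and 2 response genes higher. A pseudocount of 0.1, or a filter at a mean of 1 FPKM, gave 2 response genes higher, and that filter also gave 7 members lower (Tgfbr3 added). Without OGTBKO 1 and WT 1 together there were 2 other pathway genes lower and 2 response genes higher.

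The labels number both groups 1 to 4 without saying that a number is shared. Deviations of same-numbered libraries correlated at 0.22, 0.17, 0.01 and -0.01, so the numbers are not taken as pairs. With the replicate block there were 888 genes called, 0 members lower and 2 higher, 1 other pathway gene higher and 1 lower, and 2 response genes higher; with the block and the trend removed, 599 genes, 0 members lower, 1 other pathway gene higher and 1 lower, and 0 response genes higher.

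Changes of sign occurred only among members that were not called. With the library total as denominator, Tgfb3 was at 0.083, Ltbp1 at 0.048, Ltbp3 at 0.053 and Eng at 0.073. Tgfb3 was at 0.0040 with a pseudocount of 1 and at 0.010 with voom. With the trend removed, with or without the block, Bmp2 was at -0.046, Ltbp2 at -0.16 and Acvrl1 at -0.14. Without OGTBKO 1 and WT 1, Bmp2 was at -0.14, Acvr1 at -0.078 and Acvrl1 at -0.11. In fits without 1 library the ranges were -0.11 to 0.16 for Tgfb3, -0.17 to 0.23 for Bmp2, -0.16 to 0.10 for Ltbp1, -0.12 to 0.13 for Ltbp2, -0.15 to 0.033 for Ltbp3, -0.055 to 0.19 for Acvr1, -0.21 to 0.042 for Acvr1b, -0.069 to 0.088 for Acvrl1, -0.12 to 0.042 for Eng, -0.23 to 0.016 for Smad7 and -0.33 to 0.27 for Fstl1. The cause of these moves was not tested. The 2 planned count-model tests were not run, because the deposited values are FPKM. Bmp4, Inhba, Smad9 and Fstl3 rested on at most 23 reads per library and were below the filter, so their differences were not tested.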
